A study of Homo sapiens with 3 samples.

Results

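The genes described here belong to bone morphogenetic protein (BMP) signalling: the ligands BMP2 and BMP4, the target genes ID1, ID2, ID3 and ID4, the inhibitory SMAD genes SMAD6 and SMAD7, the decoy receptor gene BAMBI and the signal transducer gene SMAD9. They were taken by name, as all probe sets annotated to exactly 1 symbol that is one of these 10 genes. This gave 20 probe sets of 54675 on the array, and 10 genes of 19775 with a name. The genes were chosen by name with measured values of these same arrays known, among them the differences of BMP2, SMAD7 and ID1 from vehicle, so their values are a description and no test was run on them.

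Total RNA came from MDA-MB-231 cells, an established human breast cancer line of basal type, and was read on Affymetrix arrays after biotin labelling. By the labels there were 3 groups with 1 array each. These were tamoxifen at 1 µM for 3 h, estradiol at 1 µM for 3 h, and vehicle, which was 0.1% ethanol for 3 h. The labels give no ethanol content for the tamoxifen and estradiol groups. All groups had first spent 4 h in medium with 10% charcoal-stripped serum, which lowers the steroid content, and shared the same RPMI medium. Tamoxifen is an antiestrogen given against breast cancer and estradiol the principal natural estrogen; by its title the series is about early expression changes with tamoxifen. With 1 array per group there is no replicate spread, so no difference below has an error estimate or a p-value, and the number of arrays limits the precision. In these bulk cultures, fewer cells that express a gene and less RNA per cell cannot be told apart.

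BMPs are secreted ligands that bind pairs of receptor kinases, which phosphorylate SMAD1, SMAD5 and SMAD9. These join SMAD4 and switch on target genes, of which the ID genes are the best known; ID proteins bind E proteins and keep them from DNA. The pathway also switches on its own brakes. SMAD6 and SMAD7 block the receptors from inside the cell, and BAMBI is a membrane protein that resembles a receptor without the kinase. SMAD7 and BAMBI also act in the related TGF-beta pathway.

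The values are on the log2 scale and centred for each probe set on a baseline that is not stated, so a value compares arrays and gives no level, and values of different probe sets are not set against each other. Brightness was judged only in bands, read from the binary steps of the printed numbers, and a gene counted as above the floor when it lay in the band of 4 to 8 (log2) or brighter. This held for 12078 genes. The spread over all probe sets was SD 0.46 for tamoxifen, 0.47 for estradiol and 0.20 for vehicle. Because the vehicle column was so much narrower, each difference from vehicle was also computed with the vehicle value doubled. Which of these settings is nearer to the true difference was not tested. Whether the vehicle column averages several arrays could not be settled. Markers of mesenchymal basal-type cells, such as VIM and CD44, lay above the floor in 10 of 11 cases. Of 8 luminal markers, ESR1, GATA3, KRT19, AGR2 and XBP1 lay above the floor, and PGR, FOXA1 and CDH1 below it. ESR1 lay above it with 1 of its 9 probe sets. Whether a place above the floor means that a gene is expressed was not tested, for ESR1 or for any other gene. Of 6 blood cell markers with a probe set, 2 lay above the floor, the leukocyte gene PTPRC and the red cell gene HBB, and of 8 markers of fibroblasts and endothelial cells 3 did. Over members above the floor, the median difference from vehicle was -0.03 with tamoxifen and 0.22 with estradiol for the luminal list, -0.17 and -0.02 for the fibroblast and endothelial list, and 0.0032 and -0.26 for the blood cell list; their part in the results was not tested.

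BMP2 was higher with both ligands, and most with tamoxifen. Its probe set above the floor, 205290_s_at, had 2.01 with tamoxifen, 1.49 with estradiol and 0.06 with vehicle. The other probe set, 205289_at, lay below the floor and had 2.10 with tamoxifen, 1.20 with estradiol and 0.22 with vehicle. Both probe sets thus put the arrays in the same order, tamoxifen above estradiol above vehicle. On 205290_s_at, BMP2 was 3.86-fold higher with tamoxifen and 2.70-fold higher with estradiol than with vehicle. With the vehicle value doubled these folds were 3.71 and 2.59. Among the 12078 genes above the floor, BMP2 stood at rank 7 from the top in tamoxifen minus vehicle and at rank 38 in estradiol minus vehicle.

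BMP4, the closest relative of BMP2 among the ligands, hardly differed between the arrays. Its single probe set had 0.0082 with tamoxifen, 0.011 with estradiol and 0.015 with vehicle. The differences from vehicle were -0.0064 with tamoxifen and -0.0034 with estradiol. This probe set lay in the band of 8 to 16, the brightest.

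SMAD7, which blocks BMP and TGF-beta receptors from inside the cell, was higher with both ligands and highest with estradiol. Its single probe set had 1.25 with tamoxifen, 1.62 with estradiol and 0.54 with vehicle. This is 1.63-fold above vehicle with tamoxifen and 2.11-fold with estradiol, at ranks 490 and 98 from the top. SMAD7 was past 1.5-fold in neither case with the vehicle doubled, where it differed by 0.16 with tamoxifen and 0.54 with estradiol.

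BAMBI, the decoy receptor, stood at nearly the same height on both ligand arrays. Its probe set had 1.06 with tamoxifen, 1.09 with estradiol and 0.21 with vehicle. The folds over vehicle were 1.80 with tamoxifen and 1.84 with estradiol. Doubling the vehicle left them at 1.56 and 1.59, so BAMBI and BMP2 passed 1.5-fold with both ligands in both settings. The sequence before the BAMBI start is shown because it holds a cluster of the letters GGCGCC, a GC-rich element that BMP-activated SMADs can bind. It covers chr10:28677271-28677520 on the plus strand of GRCh38.p14 (RefSeq), 250 bases 5′ to 3′ that end at the start site, with the motif in capitals.
BAMBI: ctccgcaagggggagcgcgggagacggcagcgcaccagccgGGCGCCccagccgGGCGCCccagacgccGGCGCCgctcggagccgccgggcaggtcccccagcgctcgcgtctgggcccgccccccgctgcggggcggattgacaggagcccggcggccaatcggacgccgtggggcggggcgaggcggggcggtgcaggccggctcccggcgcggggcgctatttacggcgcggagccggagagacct
The motif occurs 3 times, beginning 209, 196 and 181 bases before the start. Of 35116 promoter windows in the same table, each of 300 bases, 19.2% hold it at least once on either strand, among them 1 of 3 windows of BMP4, which holds it 2 times.

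SMAD6, the other inhibitory SMAD and the more selective for BMP receptors, had 4 probe sets that did not move together. The brightest, 209886_s_at, had 0.13 with tamoxifen, -0.34 with estradiol and 0.08 with vehicle. The other probe set above the floor, 207069_s_at, had 0.30 with tamoxifen, -0.01 with estradiol and -0.03 with vehicle. On both of them tamoxifen stood highest, while estradiol lay below vehicle on the first and just above it on the second; with the vehicle doubled (0.16) tamoxifen lay just below vehicle on the first. Across all 4 probe sets, the difference from vehicle ran between 0.05 and 0.40 with tamoxifen, above 0 in 4 of 4, and between -0.42 and 0.44 with estradiol, above 0 in 2 of 4. No probe set of SMAD6 reached 1.5-fold with the vehicle as deposited. The SMAD6 promoter is shown because it holds GTCTAGAC, the palindrome to which SMAD3 and SMAD4 bind; the sequence covers chr15:66701986-66702235, plus strand, GRCh38.p14.
SMAD6: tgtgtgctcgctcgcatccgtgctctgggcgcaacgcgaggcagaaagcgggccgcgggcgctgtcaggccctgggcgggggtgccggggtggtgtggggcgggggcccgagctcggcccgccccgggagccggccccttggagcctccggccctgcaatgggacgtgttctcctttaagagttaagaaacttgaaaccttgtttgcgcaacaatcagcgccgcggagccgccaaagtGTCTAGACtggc
The palindrome, in capitals, begins 12 bases before the start. It occurs in 0.202% of the 35116 windows (71 of them), and in no other window of the genes described here. No window was found for BMP2, so its promoter was not searched.

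SMAD9, a signal transducer of the BMP branch, lay below the floor with both of its probe sets. Probe set 227719_at had -0.28 with tamoxifen, -0.50 with estradiol and 0.05 with vehicle, and 206320_s_at had -0.07, 0.00074 and -0.11 in the same order. The difference of the first from vehicle was -0.33 with tamoxifen and -0.55 with estradiol, and that of the second 0.04 and 0.11. The probe sets therefore had opposite signs, and neither reached 1.5-fold with the vehicle as deposited; 227719_at differed by -0.60 with estradiol when the vehicle was doubled.

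**Figure D1:**
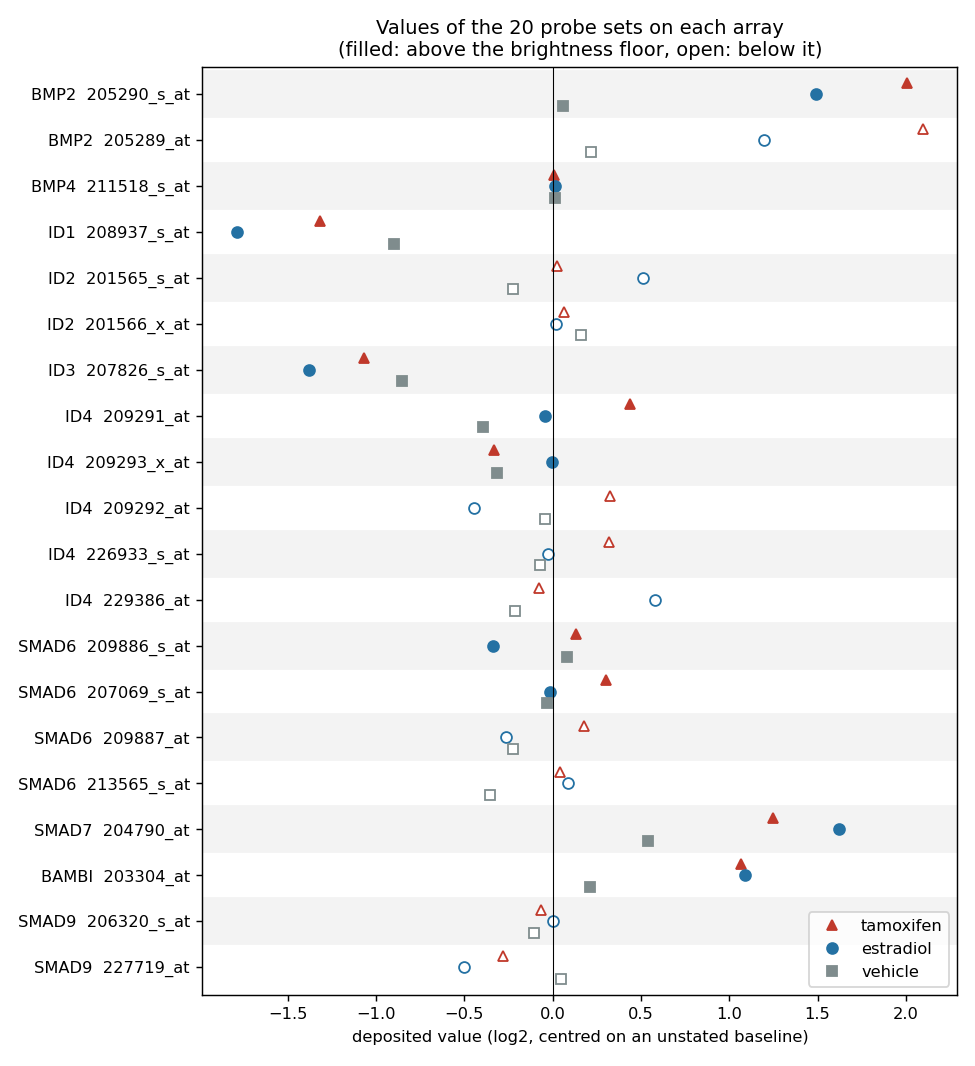
Deposited log2 value (horizontal axis, centred on an unstated baseline) of each of the 20 probe sets on the tamoxifen, estradiol and vehicle arrays. Filled symbols are the 10 probe sets above the brightness floor and open symbols the 10 below it; BMP2, SMAD7 and BAMBI have both ligand arrays right of vehicle, ID1 and ID3 have both left of it, which doubling the vehicle value would turn round.

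ID1 and ID3, both BMP target genes, were lowest with estradiol in the values as deposited. ID1 had -1.32 with tamoxifen, -1.79 with estradiol and -0.90 with vehicle. ID3 had -1.07 with tamoxifen, -1.38 with estradiol and -0.85 with vehicle. Both genes, each with 1 probe set above the floor, thus kept the order vehicle, tamoxifen, estradiol from high to low, the reverse of BMP2, SMAD7 and BAMBI in that vehicle stood highest. ID1 was 1.86-fold lower with estradiol (-0.89, rank 56 from the bottom) and 1.34-fold lower with tamoxifen (-0.42) than with vehicle. ID3 was lower by 1.44-fold with estradiol (-0.53) and by 1.16-fold with tamoxifen (-0.22), both short of 1.5-fold.

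The direction of ID1 and ID3 against vehicle rests on how the vehicle column is read. With its value doubled, ID1 differed by 0.48 with tamoxifen and 0.0050 with estradiol, and ID3 by 0.63 with tamoxifen and 0.32 with estradiol. All of these are above 0, and ID3 with tamoxifen passed 1.5-fold upward. Tamoxifen minus estradiol does not use the vehicle column and was 0.47 for ID1 and 0.31 for ID3. The promoters of the pair are shown for comparison, as members whose values kept the same order on the arrays. That of ID1 covers chr20:31605039-31605288 on the plus strand and that of ID3 chr1:23559502-23559751 on the minus strand of GRCh38.p14, with capitals marking TATAAA and its reverse complement in ID1 and the reverse complement of TGACG, the core of a cAMP response element, in ID3.
ID1: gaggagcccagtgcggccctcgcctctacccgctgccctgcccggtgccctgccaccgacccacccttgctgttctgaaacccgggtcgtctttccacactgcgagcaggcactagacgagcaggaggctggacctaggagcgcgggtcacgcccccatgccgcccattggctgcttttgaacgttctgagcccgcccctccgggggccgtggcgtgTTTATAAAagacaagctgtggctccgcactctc
ID3: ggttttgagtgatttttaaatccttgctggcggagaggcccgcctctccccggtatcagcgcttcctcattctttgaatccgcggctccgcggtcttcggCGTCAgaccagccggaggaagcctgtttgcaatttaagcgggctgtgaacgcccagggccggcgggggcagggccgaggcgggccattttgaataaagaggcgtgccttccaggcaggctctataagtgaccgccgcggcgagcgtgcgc
The letters TATAAA, a motif added after the windows had been read, begin 31 bases before the ID1 start and overlap their reverse complement, which begins at 33. They are in 11.5% of all windows, and also in those of ID4 and in 1 of 3 windows of SMAD7. The TGACG match of ID3 begins 150 bases before the start, and 24.6% of all windows hold that motif, that of SMAD9 included. None of the 13 windows found for 9 of the 10 genes holds TGACGTCA, the full cAMP response element (1.85% of all windows), and CACGTG, an E-box, is in 1 of 3 windows of BMP4 and in that of SMAD9 (7.26% of all windows).

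ID2 and ID4 did not follow ID1 and ID3. ID2 lay below the floor with both probe sets. Probe set 201565_s_at had 0.02 with tamoxifen, 0.51 with estradiol and -0.22 with vehicle, and 201566_x_at had 0.06, 0.02 and 0.16 in the same order. The first was past 1.5-fold above vehicle with estradiol (0.74) and the second was not (-0.14), so the 2 probe sets of ID2 had opposite signs.

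ID4 had 5 probe sets, of which 2 lay above the floor. Probe set 209291_at had 0.44 with tamoxifen, -0.04 with estradiol and -0.40 with vehicle. Probe set 209293_x_at, of a type that can pick up related sequences, had -0.33 with tamoxifen, -0.0023 with estradiol and -0.32 with vehicle. The first had tamoxifen highest and the second had estradiol highest. Their mean differed from vehicle by 0.41 with tamoxifen and 0.33 with estradiol, within 1.5-fold, and by 0.76 and 0.69 with the vehicle doubled, past it. On 209291_at alone the difference was 0.83 with tamoxifen. Over all 5 probe sets it ran between -0.02 and 0.83 with tamoxifen and between -0.40 and 0.79 with estradiol, each with 4 above 0 and 1 below.

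In all, 8 of the 10 genes lay above the floor, ID2 and SMAD9 being the exceptions. With tamoxifen, 3 of the 8 were past 1.5-fold above vehicle (BMP2, SMAD7 and BAMBI) and 0 below, where 6.97% of the 12078 genes above the floor were higher by that much and 4.33% lower. With estradiol the same 3 genes were past 1.5-fold above vehicle and ID1 below it, where 5.84% of all genes were higher and 2.65% lower. The median difference over the 8 genes was 0.23 with tamoxifen and 0.16 with estradiol, beside 0.02 and 0.02 over all genes. At 2-fold, BMP2 alone was higher with tamoxifen (1.23% of all genes higher, 0.472% lower), and BMP2 and SMAD7 with estradiol (1.09% higher, 0.232% lower). Both comparisons use the same vehicle column, and because the genes were picked with these contrasts known nothing further is read from the counts.

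With the vehicle doubled, BMP2, ID3, ID4 and BAMBI were past 1.5-fold upward with tamoxifen, against a background of 7.15%, and BMP2, ID4 and BAMBI with estradiol, against 4.4%. None of the 8 was lower by that much, where 3.64% and 1.92% of all genes were. As a scale for these sizes, in 5372 genes with several probe sets above the floor, the range between probe sets of 1 gene had a median of 0.35 for tamoxifen minus vehicle and 0.35 for estradiol minus vehicle, and a 95th percentile of 1.07 and 1.09. BMP2 differed from vehicle by more than that 95th percentile with both ligands, and SMAD7 and BAMBI by less. That range measures disagreement between probe sets on the same arrays and not variation between cultures. BMP2 was picked with its difference known, so nothing further is read from this.

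**Figure D2:**
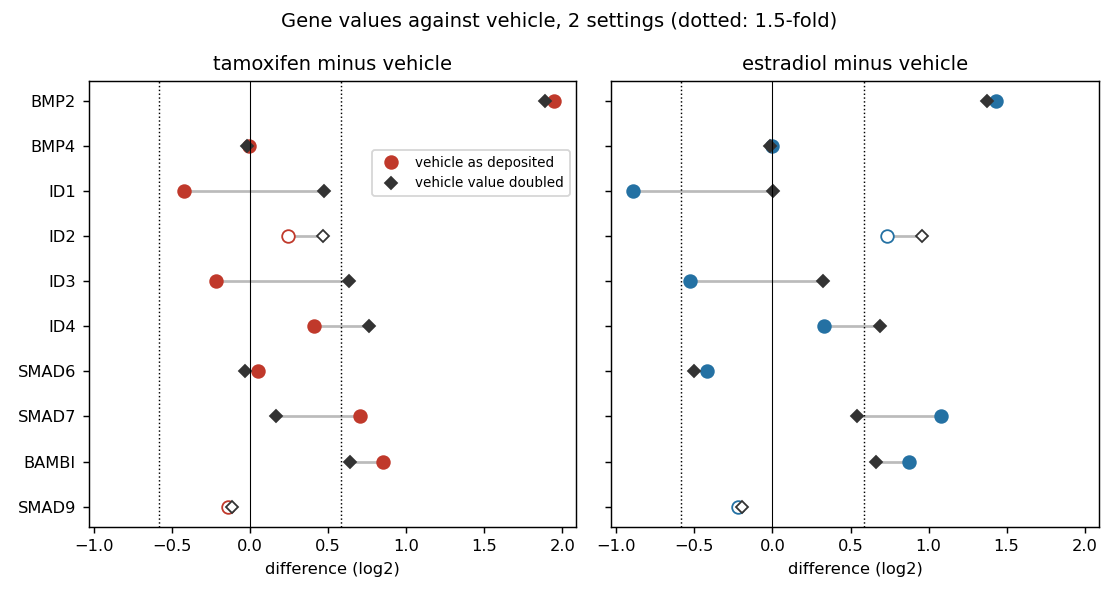
Difference from vehicle (log2) of each gene with tamoxifen (left) and estradiol (right), with circles for the vehicle value as deposited, diamonds for it doubled, open symbols for genes below the brightness floor and dotted lines at 1.5-fold. BMP2 stays near 1.9 and 1.4, while ID1 and ID3 cross 0 between the settings.

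Compared directly at equal dose and time, tamoxifen and estradiol differed by less than 1.5-fold in all 8 genes above the floor, where 1.56% of all genes were higher by that much with tamoxifen and 2.2% lower. BMP2 was 1.43-fold higher with tamoxifen (0.52, rank 326 from the top). ID1 and SMAD6 followed at 0.47 each. These 3 genes lay above the 95th percentile of all genes, which was 0.42. For SMAD6 this held on its brightest probe set, 209886_s_at. The other SMAD6 probe set above the floor, 207069_s_at, differed by 0.31, and the mean of all its probe sets by 0.29, both below that percentile. ID3 differed by 0.31 and ID4 by 0.08, while BMP4 (-0.0030) and BAMBI (-0.03) hardly differed. SMAD7 was the lowest, at -0.37, inside the 5th percentile of -0.45. BMP2 passed 1.5-fold in this comparison on probe set 205289_at (0.90), below the floor, and as a mean of both probe sets (0.71). Of the 20 probe sets, 2 were past 1.5-fold upward (1 each of BMP2 and ID4) and 1 downward, also of ID4, where 3.6% and 3.84% of all named probe sets were.

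**Figure D3:**
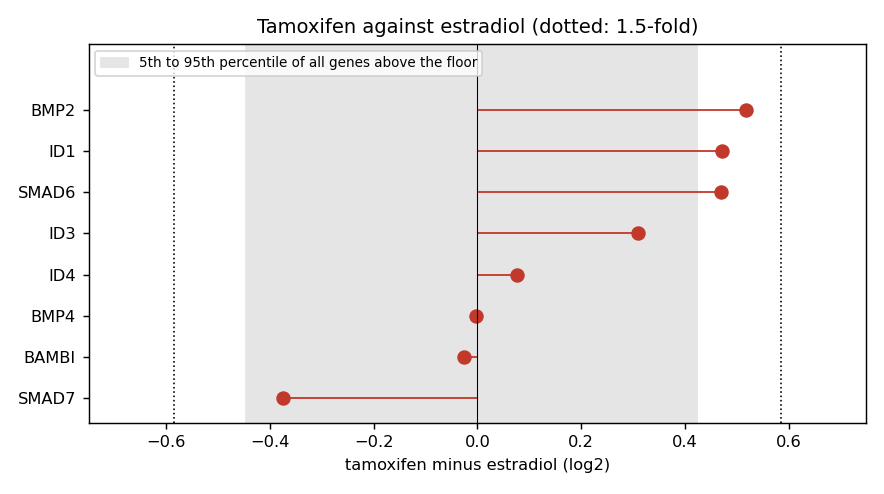
Tamoxifen minus estradiol (log2) of the 8 genes above the brightness floor, with the range from the 5th to the 95th percentile of all genes above the floor shaded and dotted lines at 1.5-fold. BMP2, ID1 and SMAD6 lie right of the shaded range and SMAD7 lies at -0.37. SMAD6 is drawn by its brightest probe set only.

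Of the other genes of the pathway, 83 were listed by role, 79 had a probe set of their own and 51 lay above the floor. With tamoxifen, 7 of the 51 were past 1.5-fold above vehicle and 1 below, beside 6.97% and 4.33% of all genes above the floor. With estradiol 3 were higher and 2 lower, beside 5.84% and 2.65%, and in tamoxifen minus estradiol 2 were higher and 0 lower, beside 1.56% and 2.2%. The medians were 0.13 with tamoxifen and 0.07 with estradiol, and 0.15 for tamoxifen minus estradiol, beside 0.02, 0.02 and -0.02 over all genes. With the vehicle doubled, 11 were higher and 1 lower with tamoxifen, beside 7.15% and 3.64% of all genes, and 0 higher and 1 lower with estradiol, beside 4.4% and 1.92%. That setting brought BMP8B (0.67), BMPR2 (0.91), the corepressor gene SKI (0.68), the SMAD phosphatase gene PPM1A (0.62), ZNF503 (1.19), TGFB1 (0.67) and the cytokine gene IL11 (0.82) past 1.5-fold with tamoxifen.

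Among the 4 other BMP and GDF ligands above the floor none was past 1.5-fold as deposited, with medians of 0.11 with tamoxifen and 0.05 with estradiol. Of 5 receptors and coreceptors, ACVR1, a type I BMP receptor, was past it with tamoxifen. ACVR1 had 0.62 with tamoxifen, 0.36 with estradiol and -0.02 with vehicle, a difference of 0.64 with tamoxifen and 0.38 with estradiol. BMPR2, the type II BMP receptor, differed from vehicle by 0.56 with tamoxifen and 0.13 with estradiol. BMPR1A was listed too but had no probe set of its own, so no value is given for it.

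None of the 5 SMAD transducers passed 1.5-fold in any comparison. SMAD1 differed from vehicle by 0.11 with tamoxifen and -0.17 with estradiol, SMAD5 by 0.21 and -0.29, and the shared partner SMAD4 by 0.53 and 0.07. In these 3 genes the tamoxifen array stood above the estradiol array, by 0.28, 0.50 and 0.45. It stood below it for SMAD2 (-0.05) and SMAD3 (-0.26), the transducers of TGF-beta signals.

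Of 7 secreted BMP antagonists, 1 was past 1.5-fold above vehicle and 1 below it with each ligand. Of all genes above the floor, 6.97% were higher and 4.33% lower by that much with tamoxifen, and 5.84% and 2.65% with estradiol. CHRDL1, a chordin-like protein that binds BMPs, had 1.38 with tamoxifen, 1.41 with estradiol and 0.55 with vehicle. FSTL3, a follistatin-like protein that binds activins and some BMPs, had -1.34 with tamoxifen, -0.88 with estradiol and -0.20 with vehicle. CHRDL1 was thus 0.83 above vehicle with tamoxifen and 0.86 with estradiol, and FSTL3 lower at -1.14 and -0.68. With the vehicle doubled CHRDL1 differed by 0.29 and 0.32, and FSTL3 by -0.94 and -0.48. The single probe set of FSTL3 is of a type that can pick up related sequences. The 9 intracellular brakes, such as the ubiquitin ligases SMURF1 and SMURF2, had none past 1.5-fold as deposited and medians of 0.30 with tamoxifen and 0.15 with estradiol. With all probe sets averaged these medians were 0.04 and -0.21.

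Of 10 other BMP target genes 3 lay above the floor. RUNX2, a transcription factor of bone formation, had 0.65 with tamoxifen, 0.22 with estradiol and -0.08 with vehicle. It was past 1.5-fold above vehicle with tamoxifen (0.74) and not with estradiol (0.30). ZNF503 was past 1.5-fold in tamoxifen minus estradiol (0.88), with -0.05 on the tamoxifen and -0.94 on the estradiol array. With all probe sets averaged neither call was kept, RUNX2 standing at 0.16 with tamoxifen and ZNF503 at 0.21 in tamoxifen minus estradiol. Among the E proteins, the partners that ID proteins bind, TCF4 had -0.45 with tamoxifen, -1.21 with estradiol and -0.31 with vehicle. TCF4 differed from vehicle by -0.90 with estradiol, and tamoxifen exceeded estradiol by 0.77. With all probe sets averaged these were -0.42 and -0.0016, and without cross-reacting types -0.06 and -0.21, so that both calls were lost. With the vehicle doubled TCF4 differed by 0.18 with tamoxifen and -0.59 with estradiol. TCF3 and TCF12 passed 1.5-fold in no comparison.

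In the TGF-beta branch, the receptor genes TGFBR1 and TGFBR2 and INHBA, which encodes an activin subunit, were past 1.5-fold above vehicle with tamoxifen (3 of 7 ligands and receptors, beside 6.97% of all genes). TGFBR2 had 1.18 with tamoxifen, 1.25 with estradiol and 0.39 with vehicle, and was past it with estradiol too (0.80 with tamoxifen, 0.87 with estradiol). TGFBR1 differed by 0.79 with tamoxifen and 0.44 with estradiol, and INHBA by 0.64 and 0.37. With the vehicle doubled TGFBR2 (0.41 and 0.48) and INHBA (0.46 and 0.19) were no longer past it. With all probe sets averaged TGFBR1 (0.38) and TGFBR2 (0.44) were not past it with tamoxifen, and TGFBR1 was at 0.10 without cross-reacting types. Of 8 TGF-beta target genes only SNAI2, a repressor of epithelial genes, was past 1.5-fold against vehicle as deposited. SNAI2 had 2.25 with tamoxifen, 2.03 with estradiol and 0.83 with vehicle. With the vehicle doubled it differed by 0.59 with tamoxifen and 0.37 with estradiol.

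**Figure D4:**
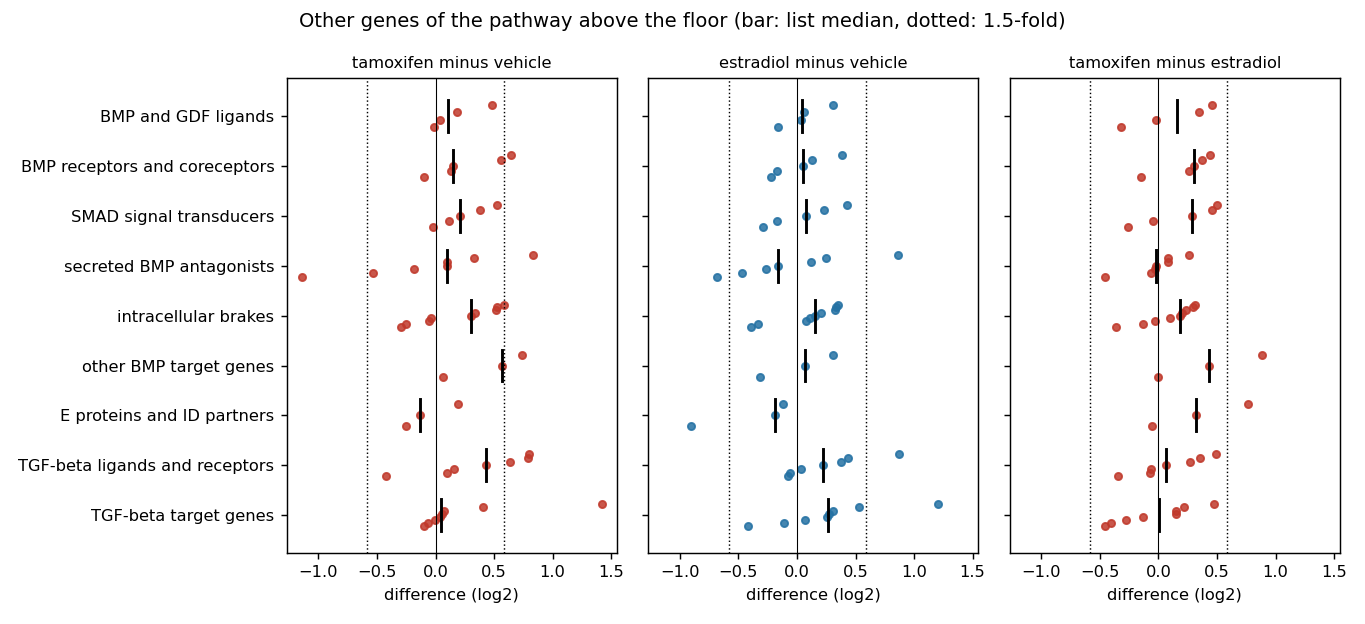
Differences (log2) of the 51 other pathway genes above the brightness floor, by role, for tamoxifen minus vehicle, estradiol minus vehicle and tamoxifen minus estradiol. Each point is a gene, short bars are list medians and dotted lines mark 1.5-fold; SNAI2 lies furthest right against vehicle and FSTL3 furthest left with tamoxifen.

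Genes whose 3 values lay nearest to those of BMP2 were sought by Euclidean distance over the 3 columns among all genes above the floor, as a description of 3 points per gene. The 5 nearest were PDK3, which encodes a kinase that switches off pyruvate dehydrogenase (distance 0.35), SHISA2 (0.37), the complement factor gene CFP (0.40), the retinol dehydrogenase gene RDH10 (0.44) and the collagen gene COL6A3 (0.46). SHISA2, for instance, had 2.11 with tamoxifen, 1.18 with estradiol and 0.25 with vehicle. The 5 nearest to ID1 were the sphingosine kinase gene SPHK1 (0.12), WDR18 (0.22), the mitochondrial gene ND6 (0.23), ANKRD18A (0.31) and PIDD1 (0.37). SPHK1 had -1.41 with tamoxifen, -1.75 with estradiol and -0.96 with vehicle.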

How the data were processed

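RNA of 3 samples was measured, with 1 array per group by the labels. The deposited values are log2 values made with RMA (version not stated), per the submitters' processing notes; the authors' baseline, the base of the logarithm and the direction of the values are not given in the sources used here, and base 2 with higher meaning more RNA was assumed. Column medians were -0.02 for tamoxifen, -0.02 for estradiol and -0.04 for vehicle.

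From these, differences between columns were computed per probe set with Python 3.11.15, pandas 2.3.3 and NumPy 2.4.6. Probe sets were named through the platform annotation supplied with the values: 41097 had 1 symbol, 1801 had several, which were left out, and 11777 were not in the table. Levels being absent, brightness was read from the binary steps of the printed values: a single-precision level of 8 to 16 is stored in coarser steps than one of 4 to 8. The finest step over the columns set the band, with vehicle shifted by 1 step, since 12.2% of its readable values lay on a finer step that 0.0037% of the estradiol values reached. A gene was given the average of whichever of its probe sets fell in the brightest band it reached. Whether the bands and the floor match the true levels on these arrays was not tested. A size rule of 1.5-fold replaced a test. The genes and lists were chosen with earlier results of these data known. The text names all 10 genes, the listed pathway genes past 1.5-fold, a fixed set of receptors and SMADs, and the nearest 5 genes to BMP2 and ID1; other genes named serve as examples. Alternatives were the doubled vehicle, 2 centrings, probe set types, the mean over all probe sets, a 2-fold rule and other floors.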

Additional observations from a re-analysis of the deposited data

How the results depend on the processing

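No paired analysis was possible because each group had 1 array. Several settings could hardly change a value. The 2 centrings shift all genes only slightly, and averaging probe sets leaves genes with 1 probe set as they were. Of 103 values of single genes recomputed under other settings, these included, 91 kept their direction and their side of 1.5-fold, a share that is no measure of robustness. Those that moved across 1.5-fold were, with the vehicle doubled, ID1 (0.0050) and SMAD7 (0.54) with estradiol, SMAD7 (0.16) and ID3 (0.63) with tamoxifen, and ID4 with tamoxifen (0.76) and estradiol (0.69); without cross-reacting probe set types, ID4 with tamoxifen (0.83); and with all probe sets averaged, BMP2 in tamoxifen minus estradiol (0.71). The sign changed in 6 values: with the vehicle doubled, in ID1 and ID3 with both ligands (ID1 0.48 with tamoxifen, ID3 0.32 with estradiol, the other two as above) and in SMAD6 with tamoxifen (0.05 as deposited, -0.03 doubled), and with all probe sets averaged in SMAD6 with estradiol (-0.42 as reported, 0.0017 averaged).

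The count of genes past 1.5-fold was 3 of 8 with tamoxifen and 4 of 8 with estradiol against vehicle, and 0 of 8 in tamoxifen minus estradiol. For tamoxifen minus vehicle it was 1 under the 2-fold rule and 0 with a floor of 8, and for estradiol minus vehicle 2 under the 2-fold rule, 0 with a floor of 8 and 2 without cross-reacting probe set types. A floor of 8 left only BMP4 and SMAD6 to count. Leaving out those types (names ending in _s_at, _x_at or _a_at) left 3 genes, ID4, SMAD7 and BAMBI. BMP2, BMP4, ID1, ID3 and SMAD6 could not be assessed that way, since all their probe sets above the floor are of those types. For tamoxifen minus estradiol the count was 1 with all probe sets averaged. The 2 centrings changed none of these counts by over 1.5 times. Of 207 counts over the pathway lists, 38 moved by over 1.5 times. Of the 20 probe sets, 10 lay below the brightness floor, where values carry less signal over background.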

Other observations

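Several listed genes below the brightness floor also differed by over 1.5-fold in a comparison, each with values that rest on dim probe sets. They are named because they passed that size. The share of all genes below the floor that passed it was not computed, so nothing further is read from them. HEY1, a transcription factor gene that BMP and Notch signals induce, had 0.62 with tamoxifen, 0.06 with estradiol and -0.20 with vehicle, a difference from vehicle of 0.83 with tamoxifen. BMPR1B, a type I BMP receptor gene, stood 0.69 higher with tamoxifen than with estradiol. SOSTDC1 and SOST, which encode related secreted antagonists, differed from vehicle in opposite directions, SOSTDC1 by 0.60 with estradiol and SOST by -0.65 with tamoxifen. A further probe set, annotated to both ID2 and ID2B and so left out above, had -0.04 with tamoxifen, 0.04 with estradiol and -0.04 with vehicle, so that its 3 values lay within 0.08 of each other.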
